A study of Homo sapiens with 6 samples.

Results

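The genes described here are 40 genes of the NF-kB pathway and its inflammatory output, out of 60617 gene identifiers counted. They are the NF-kB subunits, feedback and survival targets of NF-kB, chemokines, interleukins, ligands of the TNF and TGF-beta families, complement C3 and 2 adhesion molecules. They were chosen by name as a list of NF-kB targets, cytokines and chemokines, with earlier results of these data known. All 40 symbols matched an Ensembl identifier in the count tables.

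Messenger RNA was sequenced from 6 xenograft tumors of the established human melanoma line WM983-B. Of these, 3 carried the label of systemic anle138b and 3 the label of no treatment. Anle138b is a diphenyl-pyrazole compound that interferes with oligomers of α-synuclein, and the comparison asks how tumor gene expression differs after exposure to it. The titles follow 2 naming patterns, so that replicates 1 and 2 of each group form a 4-library set and replicate 3 of each group forms a 2-library set. No title or label used here says what the naming patterns stand for, nor gives the host strain, sex or age, the immune cells the host had, or the dose and duration of treatment. Whether each tumor grew in its own animal is not stated in the labels, so the tests reflect the spread between libraries, and all 6 tumors come from the same cell line.

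NF-kB is a family of dimeric transcription factors held in the cytoplasm by inhibitor proteins and released when receptors for TNF, IL-1 or microbial products activate the IkB kinase complex. In the nucleus the dimers bind short kappaB elements and switch on their own inhibitors, survival genes, chemokines, cytokines and adhesion molecules. Melanoma cells are known for constitutive NF-kB activity and for secreting CXC chemokines and LIF.

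Total counts ran from 12400782 to 27599159 in anle138b tumors and from 14464593 to 22768826 in untreated tumors. Replicate 3 of each group was the deepest of its group. Levels are given as CPM, counts scaled to the effective library size by TMM, and 3 counts correspond to 0.106 to 0.24 CPM in anle138b tumors and to 0.127 to 0.222 CPM in untreated tumors, for counting error only. The melanocyte-lineage genes MITF, SOX10 and PMEL were high in all 6 tumors, with PMEL between 8281 and 13444 CPM. Among marker genes of other cells, the T-cell gene CD3D had 0 counts in every tumor and the 10 lymphocyte markers summed to 1.04 to 1.53 CPM in anle138b tumors and 0.974 to 3.22 CPM in untreated tumors. The 11 myeloid markers, of which 10 or 11 were detected in each tumor, summed to 31.9, 47.1 and 52.5 CPM in anle138b tumors and to 46.4, 26.0 and 42.9 CPM in untreated tumors. LYZ (9.63 to 29.58 CPM over the 6 tumors) and CSF1R (6.59 to 11.99) made up most of the myeloid sum in every tumor. Each of the other myeloid markers stayed at or under 4.87 CPM, and CD68, CD14, AIF1, FCGR3A and TYROBP at or under 1.16. The myeloid sum thus rests mainly on LYZ and CSF1R. The 8 fibroblast and pericyte markers, all detected in every tumor, summed to 367, 373 and 571 CPM in anle138b tumors and to 341, 307 and 357 CPM in untreated tumors. Most of that sum was LUM (113 to 230 CPM over the 6 tumors), COL1A1 (62.3 to 150) and COL1A2 (55.7 to 174). Each of the others stayed at or under 9.25 CPM, with PDGFRA at 1.04 to 2.40 and PDGFRB at 0.889 to 2.72. In such bulk tumor RNA, fewer cells of a type and less RNA per cell cannot be told apart, and how mouse reads were treated is not given in the sources used here.

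Sequence upstream of the members is shown first because NF-kB acts there. RefSeq promoter windows (GRCh38.p14, 250 bases before to 50 bases after the start) were present for 32 members, some with more than 1 start and 43 windows in all. C3, CCL2, CCL5, CSF1, CX3CL1, IL18, LIF and RELB have no window here. The windows were searched on both strands for the NF-kB kappaB consensus of 10 letters, with overlapping matches allowed. It was present in 16 of 43 member windows (37.2%), against 2075 of 35116 promoter windows (5.91%). Counted by gene, with a match in any window, it was present in 14 of 32 members (43.8%), against 1937 of 27305 genes (7.09%). Members entered the list in part because they are known NF-kB targets, so this share is a description. In 10 members a match began between 50 and 90 bases before the start. The stretches below cover 110 to 41 bases before the start, 5′ to 3′ on the strand of the gene, with every matched base in capitals. They show inhibitors of the pathway, the CXC chemokines CXCL1, CXCL2 and CXCL3, and CCL20, followed by IL6, which has a match but almost no counts, and CCL18, which has no match in its window and is the member that differed most with treatment.
NFKBIA (chr14:35404790-35404859, minus strand): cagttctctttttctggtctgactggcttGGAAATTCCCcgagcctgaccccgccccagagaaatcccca
TNFAIP3 (chr6:137867149-137867218, plus strand): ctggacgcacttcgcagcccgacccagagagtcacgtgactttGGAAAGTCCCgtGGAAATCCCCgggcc
CXCL1 (chr4:73869283-73869352, plus strand): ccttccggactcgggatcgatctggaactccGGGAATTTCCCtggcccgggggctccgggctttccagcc
CXCL2 (chr4:74099236-74099305, minus strand): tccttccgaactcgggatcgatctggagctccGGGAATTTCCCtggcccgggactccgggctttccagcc
CXCL3 (chr4:74038730-74038799, minus strand): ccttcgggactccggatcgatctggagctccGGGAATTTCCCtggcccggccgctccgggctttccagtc
CCL20 (chr2:227813732-227813801, plus strand): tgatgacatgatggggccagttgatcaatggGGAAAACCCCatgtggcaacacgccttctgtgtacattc
IL6 (chr7:22727090-22727159, plus strand): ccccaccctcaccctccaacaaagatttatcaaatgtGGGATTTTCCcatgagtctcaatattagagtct
CCL18 (chr17:36064162-36064231, plus strand): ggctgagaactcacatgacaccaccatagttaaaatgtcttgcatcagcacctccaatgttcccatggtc
The whole windows of CXCL1 and CXCL3 were 82.5% identical, those of CXCL2 and CXCL3 73.8% and those of CXCL1 and CXCL2 72.1%, against 42.6% for CXCL1 and CXCL8. In CXCL1, CXCL2 and CXCL3 the capitals are 2 matches that overlap by all but 1 base.

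Of the 40 genes, 39 had at least 1 count and 30 passed the low-count filter, which asked for about 0.659 CPM in at least 3 libraries. CSF2, a myeloid growth factor, had 0 counts in every tumor, and in the least deep library that allows at most 0.24 CPM. TNF, the prototype activator of NF-kB, had 1, 0 and 4 counts in anle138b tumors and 0, 1 and 3 counts in untreated tumors. IL6, an NF-kB-driven cytokine of the acute-phase response, had 1 count in each anle138b tumor and 3, 4 and 3 counts in untreated tumors, lower in CPM in every anle138b tumor but untested. These genes therefore sat at or near the floor of detection whichever group they were in.

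CCL5, a chemokine for T cells and monocytes, had 0, 0 and 3 counts in anle138b tumors and 2, 1 and 5 counts in untreated tumors. IL32 had 0, 3 and 1 counts in anle138b tumors and 2, 0 and 1 counts in untreated tumors. IL11, a cytokine that signals through gp130, had 4, 8 and 1 counts in anle138b tumors and 12, 12 and 8 counts in untreated tumors, and the groups overlapped in CPM. Another 4 members had at least 3 counts in every library but did not pass the filter. They were IL18 (4 to 7 counts in anle138b and 5 to 9 in untreated tumors), LTB (3 to 13 and 4 to 17 counts), VCAM1 (3 to 12 and 5 to 20 counts) and IL1A. In CPM, IL18 lay at 0.248 to 0.319 in anle138b tumors and 0.370 to 0.426 in untreated tumors, without overlap, while LTB and VCAM1 overlapped. The gap for IL18 rests on 4 to 9 counts per tumor and was not tested. IL1A, an IL-1 receptor ligand stored in cells as an alarmin, had 3, 7 and 74 counts in anle138b tumors and 5, 8 and 33 counts in untreated tumors. Its high tumors were the pair of the 2-library set, one from each group.

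The most abundant members, compared as CPM per kilobase of exon and averaged over 6 tumors, were LIF at 22.6, CXCL1 at 22.2, ICAM1 at 20.8, NFKBIA at 13.4 and NFKB1 at 12.3. The ranges over tumors of LIF (17.2 to 26.6), CXCL1 (17.7 to 26.6) and ICAM1 (18.2 to 28.6) overlapped, and so did those of NFKBIA (11.6 to 14.4) and NFKB1 (10.8 to 13.8). RELA at 9.35, TNFAIP3 at 9.03, TRAF1 at 7.98 and CCL28 at 7.82 CPM per kilobase came next in order, with overlapping ranges. CXCL8, the main neutrophil attractant of human tumors, averaged 4.25 CPM per kilobase. CXCL2 and CXCL3, neighbours of CXCL1 on chromosome 4 with the same kappaB match, averaged 0.408 and 0.380 CPM per kilobase, and their ranges lay wholly below that of CXCL1. Reads that map to more than 1 of these 3 genes could have been split or dropped by the counting, so their levels are uncertain. In 43.3% of its exon bases REL overlaps a noncoding gene annotated on the same strand, as TGFB2 does in 26.6%, and both of those noncoding genes were listed at 0 counts.

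**Figure D1:**
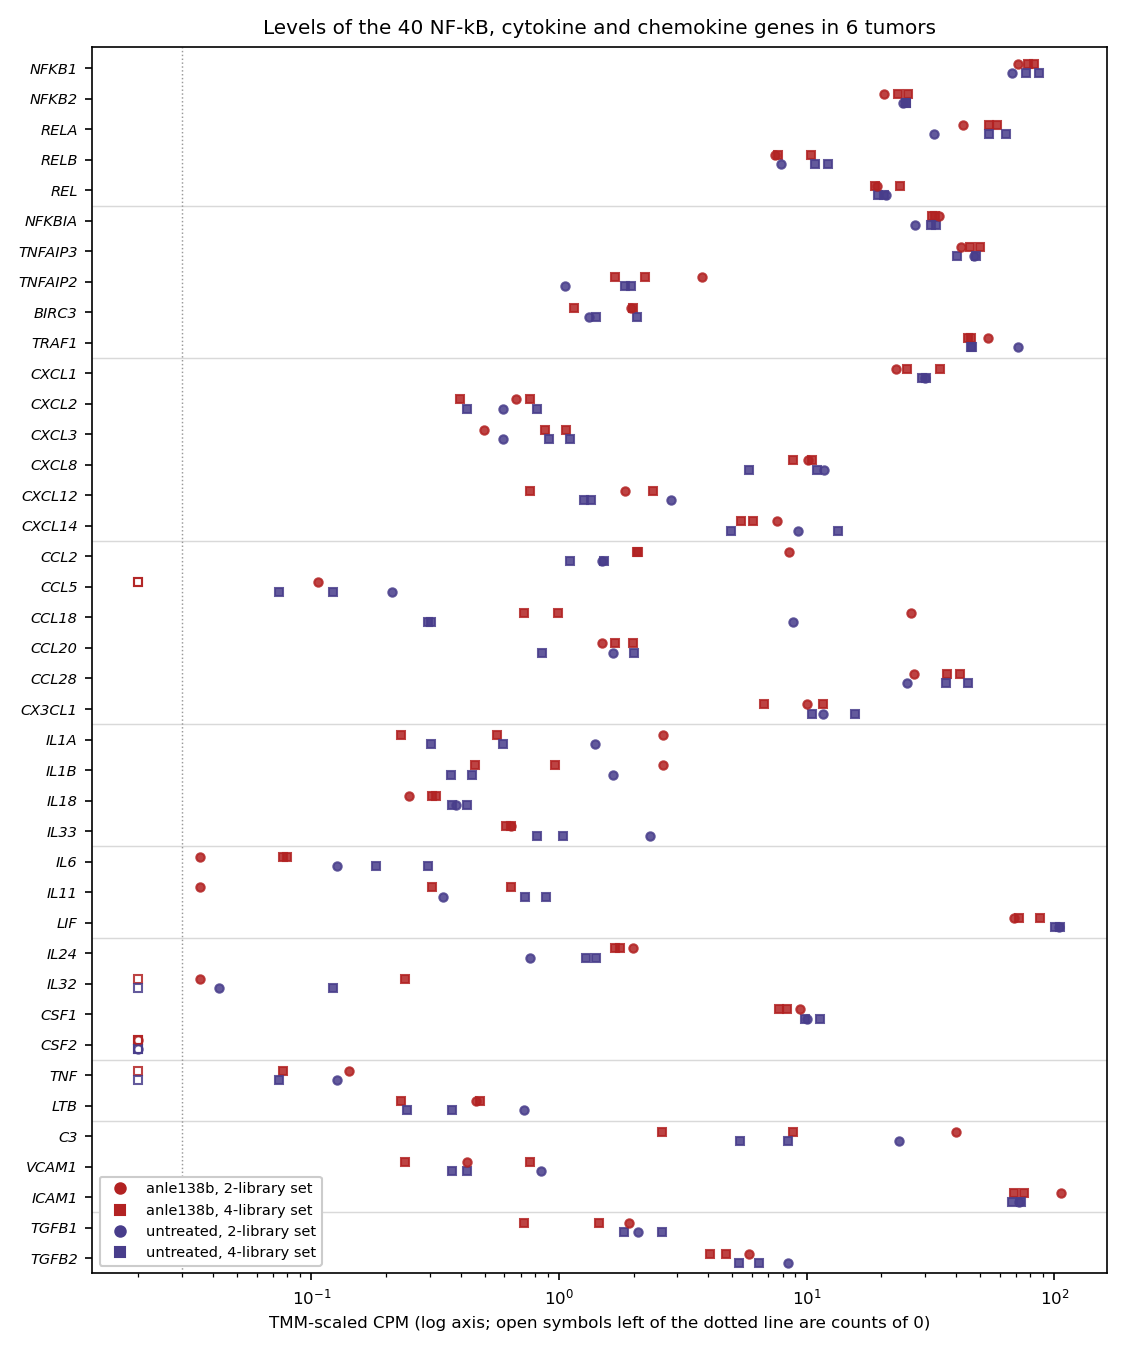
Level of each of the 40 members in each tumor, as TMM-scaled CPM on a log axis, with genes grouped by role; red stands for anle138b and violet-blue for untreated tumors, circles for the 2-library set and squares for the 4-library set. Open symbols left of the dotted line are counts of 0. CCL18, IL1A, IL1B, C3, TRAF1 and TNF (the last at very few counts) have both circles to the right of all squares. NFKB1, RELA, CXCL3 and CCL28 have both circles to the left of all squares.

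The comparison of anle138b with untreated tumors asked whether treatment changed this programme. CCL18 was called higher, though it passed the low-count filter only with the anle138b tumors, where it was higher. The other 29 tested members did not pass the threshold. Over all 20423 genes tested, the edgeR quasi-likelihood test called 1.05% at an adjusted p of 0.05, and it called 1 of 30 members (3.33%), with 0.656% of all genes called higher and 0.397% called lower. At an unadjusted p below 0.05 there were 6 members of 30, against 8.49% of all genes. DESeq2 called 2 members and limma voom called 1, against 2.02% and 1.17% of all genes. The median log2 fold change of anle138b over untreated was 0.01 for the 30 members and -0.01 for all genes tested. Groups did not overlap for 5 of 30 members (16.7%), against 8.5% of all genes tested (4.03% higher and 4.47% lower): CCL2 and IL24 were higher, and IL33, LIF and CSF1 lower, in every anle138b tumor.

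The NF-kB subunits form the dimers themselves, and none of the 5 passed the test or reached an unadjusted p below 0.05 by edgeR; DESeq2 and limma voom called none either. NFKB1, whose precursor is processed to p50, stood at 82.5, 78.4 and 71.1 CPM in anle138b tumors and at 76.8, 86.2 and 67.7 CPM in untreated tumors, a log2 fold change of 0.01 ± 0.10 (SE; edgeR adjusted p = 0.993). RELA, the p65 subunit that carries the transactivation domain, had 58.3, 54.2 and 42.9 CPM in anle138b tumors and 54.6, 63.9 and 32.5 CPM in untreated tumors. The lowest tumor of RELA in each group was the one from the 2-library set. Log2 fold changes were -0.11 for NFKB2 and -0.25 for RELB, the subunits of the noncanonical branch, and 0.02 for REL.

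Feedback and survival targets are the usual transcript readout of NF-kB activity, and none of the 5 passed the test or reached an unadjusted p below 0.05 by edgeR, and none passed by DESeq2 or limma voom. NFKBIA, which encodes the inhibitor IkB-alpha, had 32.8, 32.0 and 34.2 CPM in anle138b tumors and 33.2, 31.7 and 27.4 CPM in untreated tumors. Its log2 fold change was 0.11 ± 0.11 (SE; edgeR adjusted p = 0.922), with overlapping groups. TNFAIP3, the ubiquitin-editing inhibitor A20, had a log2 fold change of 0.01, and BIRC3, an inhibitor of apoptosis, 0.12. TRAF1, a signalling adaptor of TNF receptors, stood at 46.1, 44.6 and 53.9 CPM in anle138b tumors and 46.0, 46.6 and 71.3 CPM in untreated tumors, a log2 fold change of -0.16. TNFAIP2, a TNF-inducible gene, had 2.22, 1.68 and 3.79 CPM in anle138b tumors and 1.95, 1.85 and 1.06 CPM in untreated tumors, and its log2 fold change was 0.73 ± 0.37 (SE; edgeR adjusted p = 0.688). The separation in TNFAIP2 lay in the 2-library set, while the 4 tumors of the other set overlapped.

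CXC chemokines recruit neutrophils (CXCL1, CXCL2, CXCL3 and CXCL8) or bind CXCR4 (CXCL12), and none of the 6 passed the test or reached an unadjusted p below 0.05 by edgeR, with 0 calls also by DESeq2 and limma voom. CXCL1 had 34.4, 25.4 and 22.9 CPM in anle138b tumors and 29.1, 30.4 and 30.1 CPM in untreated tumors, a log2 fold change of -0.13 ± 0.14 (SE; edgeR adjusted p = 0.936). The anle138b values of CXCL1 lay on both sides of the untreated ones. Log2 fold changes were 0.05 for CXCL2, -0.12 for CXCL3, 0.04 for CXCL8, -0.13 for CXCL12 and -0.54 for CXCL14. The value of CXCL14 had an SE of 0.31 and its untreated tumors alone ranged from 4.96 to 13.4 CPM.

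Among CC and CX3C chemokines, CCL18 (chr17:36064280-36072032) was the member called. It encodes a chemokine secreted in humans by alternatively activated macrophages and dendritic cells, and no mouse counterpart is known. CCL18 had 0.994, 0.719 and 26.4 CPM in anle138b tumors (13, 9 and 747 counts) and 0.304, 0.296 and 8.82 CPM in untreated tumors (5, 4 and 208 counts). Its log2 fold change was 1.56 ± 0.22 (SE; edgeR quasi-likelihood test, adjusted p = 0.0107). It reached the filter level in 3 of 3 anle138b tumors and 1 of 3 untreated tumors. CCL18 could thus pass the filter only with the anle138b tumors, the group where it was higher, which limits its call. With no low-count filter the log2 fold change was 1.57 (edgeR adjusted p = 2.26e-06). That is a different fit, of 46484 genes, and it called 1.62% of them against 1.05% in the main fit. It also called LIF, which reached the filter level in every tumor, so its p-value does not lift the limit. The groups overlap when pooled, since the untreated tumor of the 2-library set exceeds the pair of anle138b tumors in the 4-library set, but within each naming set every anle138b tumor was above every untreated one. The difference in log2 CPM was 1.57 within the 2-library set and 1.22 within the 4-library set. In the 4-library set alone the log2 fold change was 1.48 with an edgeR adjusted p of 0.487. Without anle138b replicate 3 the adjusted p was 0.472, without untreated replicate 3 it was 0.353, and without a term for naming set it was 0.99995, so the call rests on the pair of deep tumors and on that term.

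CCL2, which attracts monocytes, had 2.06, 2.08 and 8.49 CPM in anle138b tumors and 1.52, 1.11 and 1.48 CPM in untreated tumors. No anle138b tumor overlapped an untreated one, and replicate 3 stood well above the others. Its log2 fold change of 1.48 ± 0.38 (SE) did not pass (edgeR adjusted p = 0.148). It passed without anle138b replicate 2 (1.68, edgeR adjusted p = 0.0198) and with no low-count filter (adjusted p = 2.56e-05), and was 0.64 without anle138b replicate 3. The myeloid marker sum given above was 52.5 CPM in that anle138b tumor and 42.9 CPM in the untreated tumor of the same set. Its part in the CCL18 or CCL2 result was not tested. CCL20, a ligand of CCR6, had a log2 fold change of 0.17, CCL28, an epithelial chemokine, -0.0038, and CX3CL1, the membrane-bound chemokine fractalkine, -0.40.

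**Figure D2:**
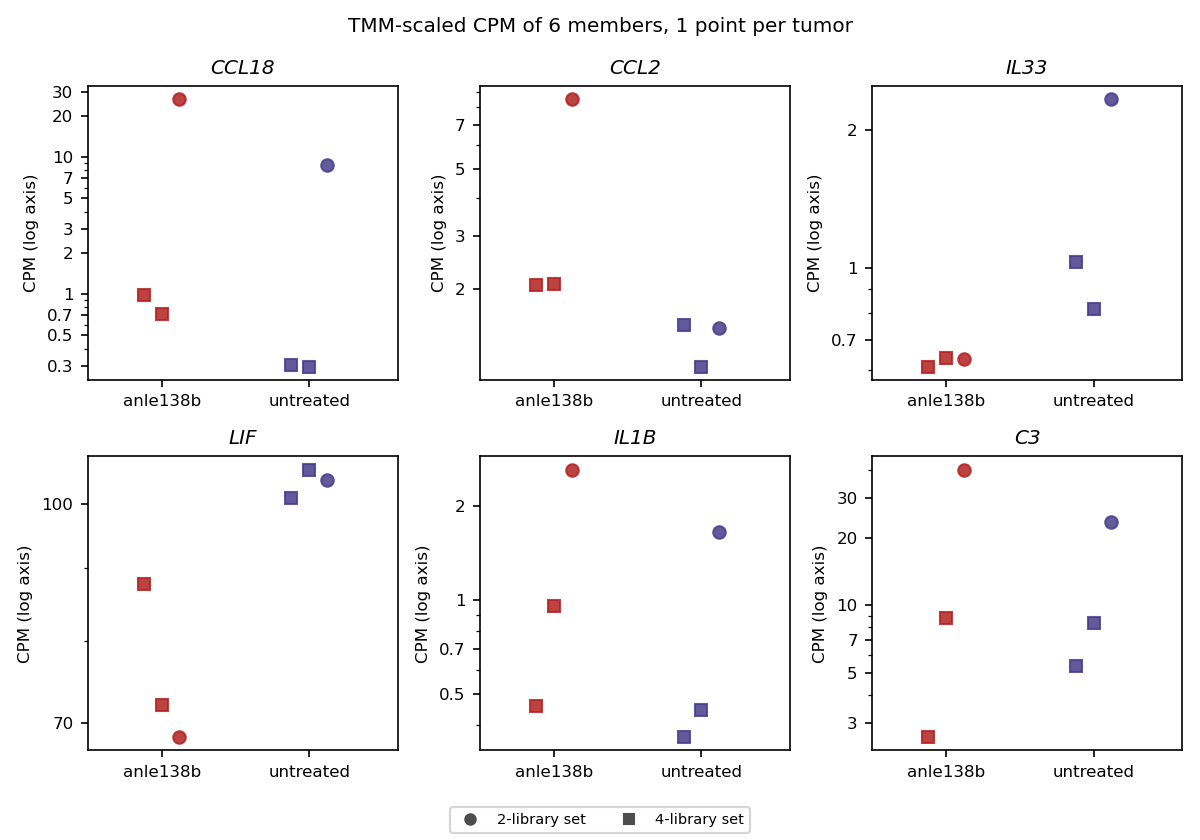
TMM-scaled CPM on log axes for CCL18, CCL2, IL33, LIF, IL1B and C3, with 1 point per tumor, anle138b left and untreated right, circles for the 2-library set and squares for the 4-library set. LIF and IL33 are lower in all 3 anle138b tumors, while CCL18, IL1B and C3 separate the circles from the squares in both groups.

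Of the interleukins and growth factors, none of the 5 tested passed by edgeR, against 1.05% of all genes. An unadjusted p below 0.05 was reached by 3 (LIF, IL33 and IL24), against 8.49% of all genes. DESeq2 called LIF, against 2.02% of all genes, while limma voom called none. LIF, a gp130 cytokine of the IL-6 family and the most abundant member per kilobase, had 87.7, 72.0 and 68.4 CPM in anle138b tumors and 101, 106 and 104 CPM in untreated tumors. All 3 anle138b tumors were below all 3 untreated ones, and the mean was 76.0 ± 10.3 CPM in anle138b and 103.5 ± 2.40 CPM in untreated tumors (SD, n = 3 each). The log2 fold change of -0.45 ± 0.11 (SE) had an edgeR adjusted p of 0.117. It was called by DESeq2 (adjusted p = 0.0393), with library size as the only scaling (edgeR adjusted p = 0.0477) and with no low-count filter (edgeR adjusted p = 0.00739).

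IL33, a nuclear alarmin of the IL-1 family, had 0.612, 0.639 and 0.637 CPM in anle138b tumors (8, 8 and 18 counts) and 1.04, 0.815 and 2.33 CPM in untreated tumors (17, 11 and 55 counts). It passed the filter only through the untreated tumors, of which all 3 reached the filter level against 0 of 3 anle138b tumors, so its presence among the non-overlapping members adds no support. The log2 fold change was -1.21 ± 0.37 (SE; edgeR adjusted p = 0.244). IL24, an IL-10 family cytokine first described in melanoma cells, had 1.68, 1.76 and 1.98 CPM in anle138b tumors and 1.28, 1.41 and 0.764 CPM in untreated tumors, without overlap. Its log2 fold change was 0.73 ± 0.30 (SE; edgeR adjusted p = 0.509). IL1B, the inflammasome-processed IL-1 ligand, had 0.459, 0.958 and 2.62 CPM in anle138b tumors and 0.365, 0.444 and 1.65 CPM in untreated tumors. The IL1B groups overlapped, with a log2 fold change of 0.72 ± 0.33 (SE; edgeR adjusted p = 0.621). CSF1, the macrophage growth factor, had 8.34, 7.75 and 9.38 CPM in anle138b tumors and 11.3, 9.85 and 10.1 CPM in untreated tumors, without overlap but with an edgeR adjusted p of 0.6997 for a log2 fold change of -0.29 ± 0.15 (SE).

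ICAM1, a ligand for leukocyte integrins, had 75.6, 68.6 and 106 CPM in anle138b tumors and 67.6, 73.3 and 72.0 CPM in untreated tumors. Apart from the high anle138b tumor of the 2-library set the ICAM1 values overlapped, and the log2 fold change was 0.21 ± 0.12 (SE; edgeR adjusted p = 0.763). Without strand marking, reads of ICAM1 cannot be told apart from those of the antisense gene ICAM4-AS1, which shares 21.99% of the exon bases of ICAM1 and was listed at 4 to 6 counts. C3, the central complement component, had 2.60, 8.79 and 39.98 CPM in anle138b tumors and 5.36, 8.37 and 23.5 CPM in untreated tumors, a log2 fold change of 0.18 ± 0.37 (SE; edgeR adjusted p = 0.970). Its groups overlapped, and the spread within a group was far wider than the difference between groups.

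TGFB2, a secreted TGF-beta ligand, had 4.05, 4.71 and 5.84 CPM in anle138b tumors and 6.39, 5.33 and 8.40 CPM in untreated tumors. The groups overlapped by 1 untreated tumor, and within each naming set the anle138b tumors were lower. The log2 fold change of -0.46 ± 0.17 (SE) had an edgeR adjusted p of 0.438. TGFB1 had a log2 fold change of -0.62 ± 0.33 (SE; edgeR adjusted p = 0.716) at 0.719 to 1.91 CPM in anle138b and 1.83 to 2.59 CPM in untreated tumors. HNRNPUL1, on the opposite strand and with 2010 to 3220 counts per tumor, shares 6.64% of the exon bases of TGFB1. Reads in the shared bases could have been dropped or counted for either gene, so the low counts of TGFB1 are uncertain.

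Set against the promoter search, the 10 tested members with a kappaB match had log2 fold changes between -0.13 and 0.17 (median 0.01), with 0 called for treatment. The 14 tested members with a window but no match ranged from -1.21 to 1.56 (median 0.02), with CCL18 called. The tested members C3, CCL2, CSF1, CX3CL1, LIF and RELB had no window and are in neither group. Their log2 fold changes ran from -0.45 (LIF) to 1.48 (CCL2). These are descriptions of the members: the absence of a match says only that those letters are not in the window.

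**Figure D3:**
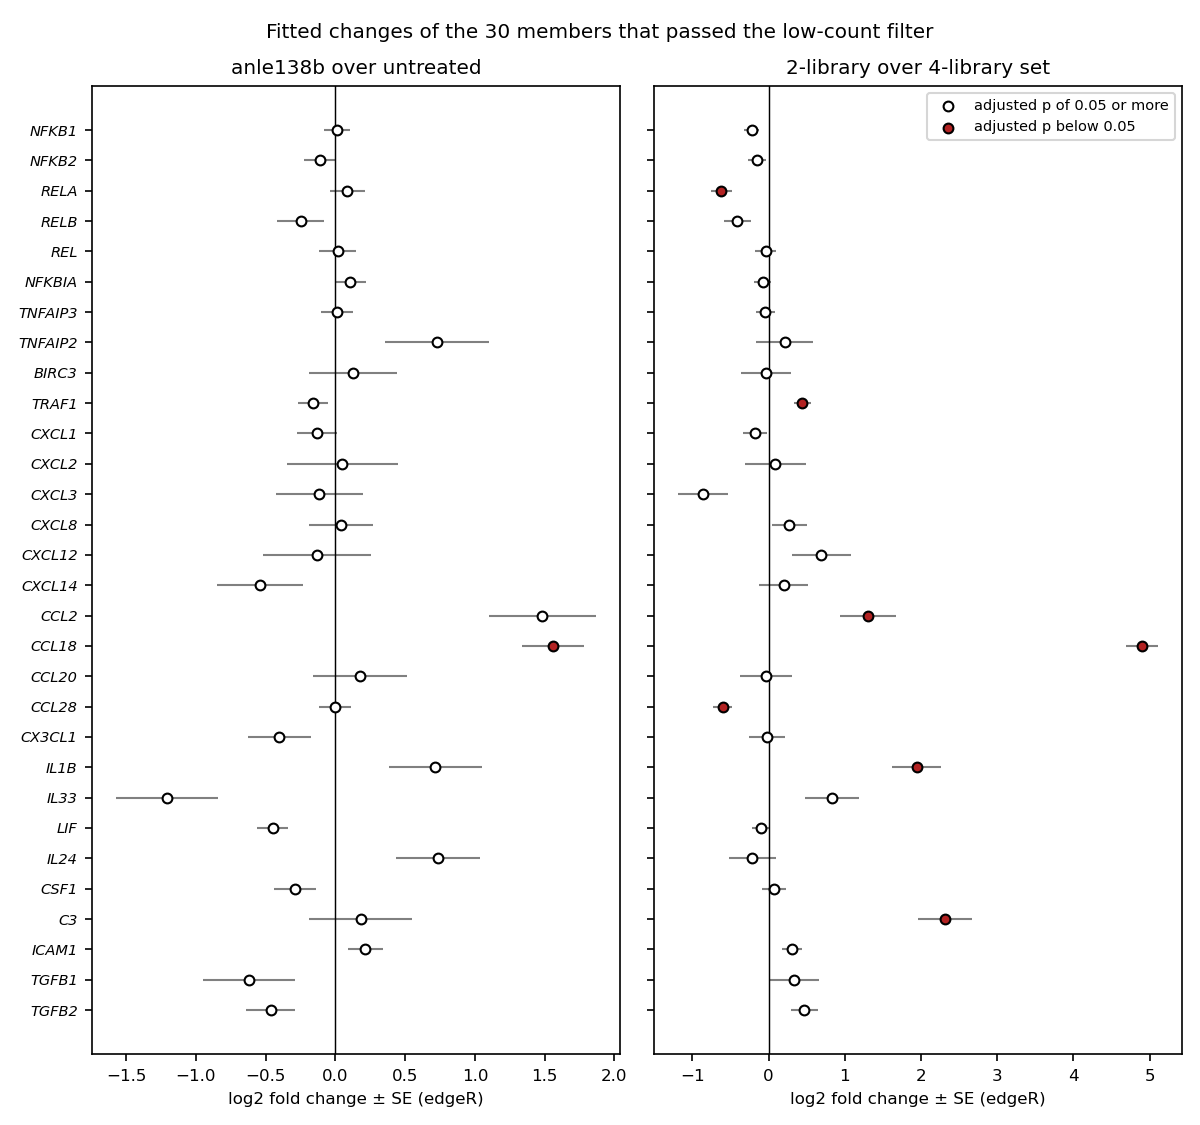
Fitted log2 fold change ± SE (edgeR) of the 30 tested members, for anle138b over untreated on the left and for the 2-library over the 4-library set on the right; filled points have an adjusted p below 0.05. On the left only CCL18 is filled, and on the right 7 members are.

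The comparison between naming sets shows how far the same genes vary apart from treatment. Of 30 members, 7 passed the edgeR test (23.3%), against 15.5% of all genes tested (8.32% higher and 7.14% lower), and 12 of 30 had an unadjusted p below 0.05, against 32.1%. CCL18, C3, IL1B, CCL2 and TRAF1 were higher and RELA and CCL28 lower in the 2-library set. The sets did not overlap for 8 of 30 members (26.7%), against 38.3% of all genes tested. The median log2 fold change was 0.03 for members and -0.02 for all genes.

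CCL18 had 26.4 and 8.82 CPM in the 2-library set and 0.296 to 0.994 CPM in the 4-library set, a log2 fold change of 4.90 ± 0.21 (SE; edgeR adjusted p = 2.43e-06). C3 was at 39.98 and 23.5 CPM in the 2-library set and at 2.60 to 8.79 CPM in the 4-library set, with a log2 fold change of 2.32 ± 0.36 (SE; edgeR adjusted p = 0.00303). IL1B had 2.62 and 1.65 CPM in the 2-library set and 0.365 to 0.958 CPM in the 4-library set, with a log2 fold change of 1.94 ± 0.32 (SE; edgeR adjusted p = 0.00473). For these 3 genes, both tumors of the 2-library set were above all of the other 4. Of them, CCL18 and IL1B passed the low-count filter only with the tumors of the 2-library set, where they were higher, which limits their set calls. CCL18 and C3 stayed called when any 1 tumor was left out, while IL1B had an edgeR adjusted p of 0.0525 without untreated replicate 3. IL1A, which was not tested, had 2.62 and 1.40 CPM in the 2-library set and 0.229 to 0.593 CPM in the 4-library set.

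Smaller set differences were found for RELA, at 42.9 and 32.5 CPM in the 2-library set and 54.2 to 63.9 CPM in the 4-library set, with a log2 fold change of -0.62 ± 0.14 (SE; edgeR adjusted p = 0.0162). CCL28 had 27.0 and 25.5 CPM in the 2-library set and 36.5 to 44.7 CPM in the 4-library set, with a log2 fold change of -0.60 ± 0.13 (SE; edgeR adjusted p = 0.0139). Both sets were apart for RELA and CCL28, and without untreated replicate 3 the adjusted p was 0.209 for RELA and 0.121 for CCL28. TRAF1 had 53.9 and 71.3 CPM in the 2-library set and 44.6 to 46.6 CPM in the 4-library set, with a log2 fold change of 0.44 ± 0.11 (SE; edgeR adjusted p = 0.0298). TRAF1 was no longer called without anle138b replicate 1 (adjusted p = 0.0680), untreated replicate 1 (0.0763), untreated replicate 2 (0.0729) or untreated replicate 3 (0.344). CCL2 was called with a log2 fold change of 1.30 ± 0.37 (SE; edgeR adjusted p = 0.0414), but its untreated tumor of the 2-library set, at 1.48 CPM, lay within the range of the 4-library set. Without anle138b replicate 3 its set difference was 0.16 (adjusted p = 0.839), and without anle138b replicate 1 it was 1.08 (adjusted p = 0.143). TGFB2, with 5.84 and 8.40 CPM in the 2-library set and 4.05 to 6.39 CPM in the 4-library set, was not called (log2 fold change 0.47 ± 0.18, SE; edgeR adjusted p = 0.104).

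Marker levels by naming set stand beside these differences. Over all genes tested, 15.5% were called between sets. The myeloid markers summed to 52.5 and 42.9 CPM in the 2-library set and to 26.0 to 47.1 CPM in the 4-library set, with ITGAM as the marker called of 6 tested (log2 fold change 1.09, edgeR adjusted p = 0.0390). The endothelial markers summed to 19.7 and 17.4 CPM in the 2-library set and to 9.11 to 12.4 CPM in the 4-library set, a gap carried by KDR, the 1 called of 5 tested. Without KDR, a step chosen after its values were seen, the other 7 endothelial markers summed to 5.70 and 7.51 CPM in the 2-library set and to 7.19 to 10.1 CPM in the 4-library set. The fibroblast and pericyte markers summed to 571 and 357 CPM in the 2-library set and to 307 to 373 CPM in the 4-library set, with 2 of 8 called. The 8 melanoma markers summed to 15585 and 14016 CPM in the 2-library set and to 15433 to 18991 CPM in the 4-library set. Of these, 3 were called by edgeR, all higher in the 2-library set: MLANA (log2 fold change 0.47), TYRP1 (1.73) and S100B (0.86). The other 5 were not called, with MITF, SOX10 and PMEL below 0. The sets overlapped in the myeloid, in the fibroblast and pericyte, and in the melanoma sums. Their part in the set differences of CCL18, IL1B and C3 was not tested, and depth and naming set cannot be told apart here.

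Whether the treatment difference itself differed between naming sets was tested as an interaction. By edgeR 0 of 30 members and 0% of all genes tested passed, with 3 members at an unadjusted p below 0.05, against 6.59% of all genes, and DESeq2 and limma voom called 0 members. CCL2 had the smallest p, with a difference in log2 CPM of 2.43 within the 2-library set and 0.63 within the 4-library set (interaction 1.87 ± 0.50, SE; edgeR adjusted p = 0.628). TNFAIP2 followed with an interaction of 1.79 ± 0.53 (SE; edgeR adjusted p = 0.648) and ICAM1 with 0.53 ± 0.21 (SE; edgeR adjusted p = 0.736). In all 3 genes the anle138b tumor of the 2-library set was the highest of the 6. For CCL18 the interaction was 0.09 ± 0.73 (SE; edgeR adjusted p = 0.989), with an SE larger than the fitted value.

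Genes around the members were read from lists of the pathway. Over all genes tested for treatment, edgeR called 1.05%, and 8.49% had an unadjusted p below 0.05. DESeq2 called 2.02% of all genes and limma voom 1.17%. The signalling machinery that leads to NF-kB, such as the IkB kinases, TRAF adaptors and ubiquitin enzymes, showed 0 calls for treatment among 33 tested of 34, with 2 at an unadjusted p below 0.05, 0 calls by DESeq2 and limma voom, and a median log2 fold change of 0.03. The smallest p-values belonged to TAB3 at 0.30 and CYLD, a deubiquitinase that restrains NF-kB, at 0.28 (edgeR adjusted p = 0.238 and 0.279), followed by RBCK1 at -0.26 (adjusted p = 0.731). Further NF-kB target genes showed 0 calls by edgeR among 19 tested of 34, with 4 at an unadjusted p below 0.05, 2 calls by DESeq2, 0 by limma voom, and a median of 0.17. Among them GADD45B, a stress-response gene, had a log2 fold change of 0.66 (edgeR adjusted p = 0.114). IER3, an immediate-early gene, had 0.86 (adjusted p = 0.192), at 33.2, 27.3 and 56.6 CPM in anle138b tumors and 21.7, 24.2 and 17.2 CPM in untreated tumors, without overlap. TNFAIP8 had 0.43 (edgeR adjusted p = 0.475).

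Receptors for the members' products showed 1 call, a fall, among 21 tested of 33, with 2 calls by DESeq2, 1 by limma voom and a median log2 fold change of 0.19. Over all genes, edgeR called 1.05%. An unadjusted p below 0.05 was reached by 9 of the 21, against 8.49% of all genes. The gene called by edgeR was CXCR4, the receptor of CXCL12, with 6.65, 5.27 and 3.86 CPM in anle138b tumors and 11.4, 17.3 and 15.6 CPM in untreated tumors. All 3 anle138b tumors were below all 3 untreated ones. Its log2 fold change was -1.53 ± 0.23 (SE; edgeR adjusted p = 0.0129), while CXCL12 itself had 0.765, 2.40 and 1.84 CPM in anle138b tumors and 1.34, 1.26 and 2.84 CPM in untreated tumors. Without anle138b replicate 3 the adjusted p of CXCR4 was 0.0741, without untreated replicate 3 it was 0.0586, and without a term for naming set it was 0.203.

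The receptor chains of LIF were among the receptors with the smallest p-values but were not called. LIFR had 19.7, 20.5 and 59.8 CPM in anle138b tumors and 17.5, 13.4 and 36.7 CPM in untreated tumors, a log2 fold change of 0.50 ± 0.13 (SE; edgeR adjusted p = 0.168). IL6ST, which encodes gp130, had 159, 156 and 257 CPM in anle138b tumors and 130, 119 and 203 CPM in untreated tumors, a log2 fold change of 0.34 ± 0.09 (SE; edgeR adjusted p = 0.167). Within each naming set both chains were higher in anle138b tumors, where LIF was lower. ITGA4, an integrin subunit that binds VCAM1, had a log2 fold change of 0.45 (edgeR adjusted p = 0.0917). The receptors of neutrophil chemokines, CXCR1 and CXCR2, stayed at or under 0.24 CPM in every tumor, and CCR6, the receptor of CCL20, had 0 counts in every tumor.

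In the TGF-beta list, 1 gene rose and 1 fell among 16 tested of 17 by edgeR, against 1.05% of all genes called, with 3 calls by DESeq2 and 2 by limma voom. An unadjusted p below 0.05 was reached by 6 of the 16, against 8.49% of all genes, and the median log2 fold change was 0.03. SMAD3, the signal transducer of TGF-beta receptors, had 67.0, 81.0 and 93.3 CPM in anle138b tumors and 39.9, 45.3 and 43.1 CPM in untreated tumors, without overlap. Its log2 fold change was 0.91 ± 0.12 (SE; edgeR adjusted p = 0.00717), and it stayed called when any 1 tumor was left out, but had an adjusted p of 0.129 without a term for naming set. LTBP1, which tethers latent TGF-beta to the matrix, had 30.2, 27.4 and 57.1 CPM in anle138b tumors and 39.8, 40.1 and 90.6 CPM in untreated tumors. The LTBP1 groups overlapped when pooled and were apart within each naming set, with a log2 fold change of -0.54 ± 0.10 (SE; edgeR adjusted p = 0.0398). Its call held without anle138b replicate 2 and was lost when any of the other 5 tumors was left out.

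Another 3 genes of that list had the next smallest p-values without a call. BAMBI, a decoy receptor of the pathway, had a log2 fold change of 0.46 (edgeR adjusted p = 0.146), THBS1, an activator of latent TGF-beta, 0.47 (adjusted p = 0.247), and TGFBI, a TGF-beta-induced matrix protein, 0.69 (adjusted p = 0.247). The levels of TGFBI were 563, 472 and 957 CPM in anle138b tumors and 437, 396 and 352 CPM in untreated tumors, without overlap. Among the fibroblast and pericyte markers, LUM was the 1 called for treatment of 8 tested, against 1.05% of all genes (log2 fold change 0.70, edgeR adjusted p = 0.0249). The part of LUM in the TGF-beta list was not tested.

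**Figure D4:**
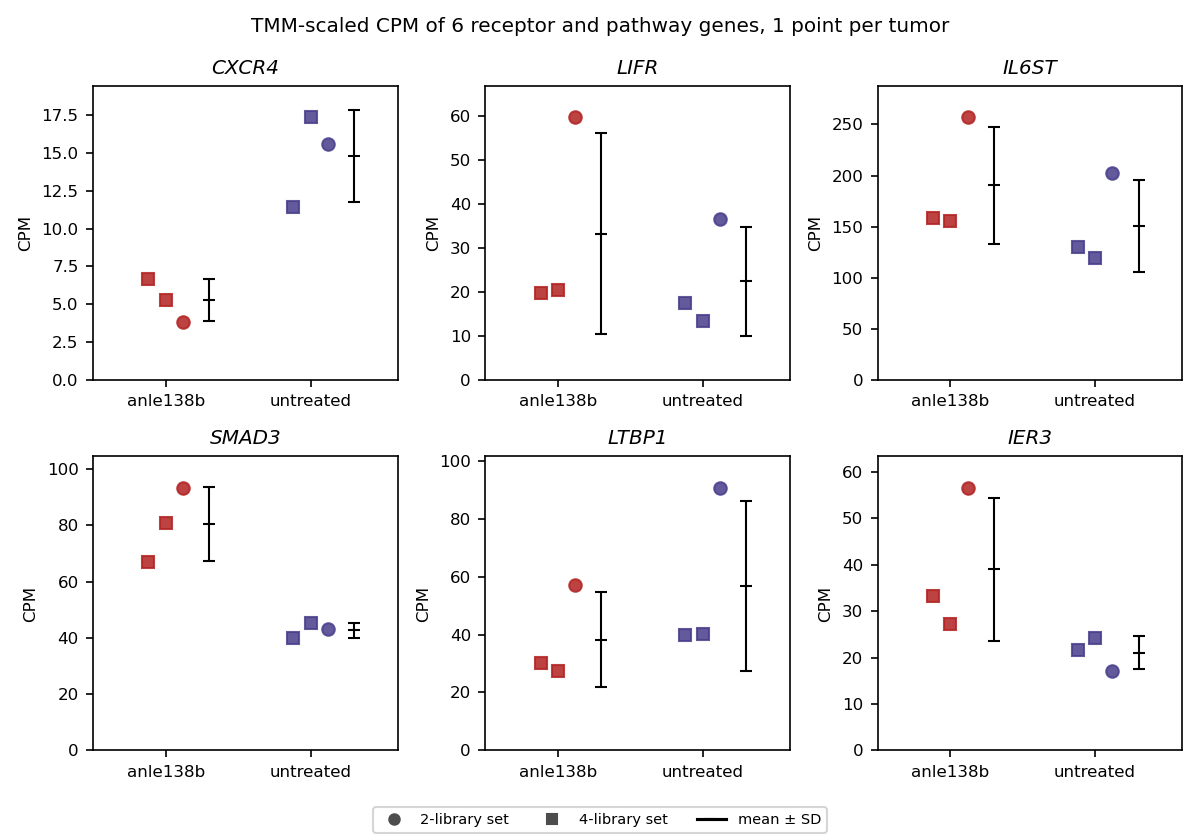
TMM-scaled CPM on linear axes from 0 for CXCR4, LIFR, IL6ST, SMAD3, LTBP1 and IER3, with 1 point per tumor, anle138b left and untreated right, circles for the 2-library set, squares for the 4-library set, and bars for mean ± SD of 3 tumors. CXCR4 is lower and SMAD3 and IER3 are higher in all 3 anle138b tumors; LIFR, IL6ST and LTBP1 have their highest tumor of each group in the 2-library set.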

How the data were processed

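Trizol was used to extract RNA and the TruSeq RNA Library Prep Kit v2, which leaves strand unmarked, to prepare libraries, per the labels. The authors deposited raw counts for each gene and tumor. The submitters' processing notes name featureCounts 1.5.0-p1, STAR 2.5.2a and bcl2fastq 2.17.1.14, and the build hg38. The annotation release is not given in the sources used here; positions and exon lengths come from GENCODE release 29. Groups came from the treatment label, and replicate numbers, given in listing order, pair no tumors. Replicates differed beyond sampling noise (chi-square per degree of freedom of at least 8.97), so each library counted as 1.

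These counts went into edgeR 4.0.16 (R 4.3.3): filterByExpr by group (minimum count 10, minimum total 15; 20423 genes), TMM scaling, and the quasi-likelihood test with treatment and naming set as terms (3 residual degrees of freedom), adjusted by Benjamini-Hochberg over all genes at 0.05. The biological coefficient of variation was 12.8%. The interaction had 2 residual degrees of freedom. The treatment and naming-set fits, but not the interaction, were run on simulated counts. Changes were planted for a single comparison at a time and only in genes above a minimum mean level. Low genes such as IL33 and IL1B were therefore not covered. The kappaB search used Python 3.11.15.

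The members, lists and tests were chosen with earlier results of these data known. Values per tumor are given for members called in any test, the 8 smallest p for treatment and for naming set, the 3 smallest for the interaction and the 5 highest per kilobase; other lists contribute genes called for treatment and up to 3 others with the smallest p. Other genes were named after their values were seen. Alternatives were other scalings and filters, DESeq2 1.42.0, limma voom 3.58.1, protein-coding genes alone, designs without a term, the 4-library set alone and leaving out each tumor.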

Additional observations from a re-analysis of the deposited data

How the results depend on the processing

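Of 30 members, 1 was called for treatment by edgeR. This count was 2 with library size as the only scaling, 3 with no low-count filter, 2 with DESeq2, and 0 with a filter of 50 counts in 3 libraries, where CCL18 was not tested, with no term for naming set, and in the 4-library set alone. Leaving out 1 tumor gave 0 to 2. The 7 members called between naming sets became 4 under the 50-count filter and 4 to 10 when 1 tumor was left out. The interaction, with 0 members called, gave 0 to 1 when 1 tumor of the 4-library set was left out, the 1 being C3 without anle138b replicate 2; without a tumor of the 2-library set it could not be fitted. Over all genes, the 215 treatment calls became 9 with no set term, 754 with no filter, 412 with DESeq2, 92 in the 4-library set alone and 89 to 392 without 1 tumor. The 3157 set calls became 6250 with no filter and 993 to 5960 without 1 tumor. The interaction, with 0 calls over all genes, gave 1 with upper-quartile scaling, 11 with library size alone, 262 with no filter, 31 with DESeq2 and 24 to 436 without 1 tumor. The causes were not tested.

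No called member changed direction under the alternatives run. Treatment differences near 0 did: under upper-quartile scaling NFKB1 was -0.0018 and TNFAIP3 -0.0030 (log2). In the 4-library set alone NFKB1 was -0.017, RELA -0.071, NFKBIA -0.0032, BIRC3 -0.16, CXCL1 0.0081, CXCL2 -0.053, CXCL12 0.27 and C3 -0.26. REL was -0.0027 and CCL28 0.0039 with limma voom, and CCL28 was 0.010 with DESeq2 and with its size factors and 0.00065 under the 50-count filter. Leaving out 1 tumor gave NFKB1 -0.017 to 0.069, RELA -0.071 to 0.20, REL -0.11 to 0.11, NFKBIA -0.0023 to 0.19, TNFAIP3 -0.058 to 0.12, BIRC3 -0.16 to 0.39, CXCL1 -0.30 to 0.018, CXCL2 -0.15 to 0.30, CXCL8 -0.20 to 0.29, CXCL12 -0.67 to 0.28, CCL20 -0.11 to 0.43, CCL28 -0.048 to 0.096 and C3 -0.27 to 0.56. The alternatives for genes outside the member list were chosen after seeing the data. No paired analysis was possible because replicate numbers follow listing order and pair no tumors. Members at or under 3 counts in a library were too shallow to compare between groups.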

Other observations

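Some genes of the pathway lists that did not pass the low-count filter were counted mostly in the 2-library set; they were chosen after their values were seen and carry no test. IL18R1, a chain of the IL-18 receptor, had 68 and 57 counts in the anle138b and untreated tumors of the 2-library set and 0 or 1 count in each of the 4 others. MAP3K8, a kinase upstream of NF-kB and MAP kinases, had 86 and 84 counts in the anle138b and untreated tumors of the 2-library set and 2 to 8 counts in the 4 others. Both tumors of that set were alike for these genes, whatever the treatment.

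For other genes the anle138b tumor of the 2-library set was the highest of the 6. NOD2, a sensor of bacterial peptidoglycan, had 39 counts there and 11 in the untreated tumor of that set, and 1 to 4 counts in the 4 others. LCN2, a siderophore-binding protein, had 24 counts there and 3 in the untreated tumor of that set, and 1 count in each of the 4 others. CCL3, a macrophage chemokine, had 23 counts there and 2 in the untreated tumor of that set, and 0 to 2 counts in the 4 others. For NOD2 and LCN2 the untreated tumor of that set was also above the 4 others in CPM, and for CCL3 it was not. CCL2 and IL1A had their highest value in the same anle138b tumor.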
